A study of Homo sapiens with 11 samples.

Results

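The genes described here encode the J-domain co-chaperones of the endoplasmic reticulum (ER) and SIL1: DNAJB9, DNAJB11, DNAJC1, DNAJC3, DNAJC10, DNAJC16, DNAJB12, DNAJB14 and SIL1. They were chosen by name, and all 9 were found among the 38021 gene names of the count table. RNA was sequenced from HEK293T cells, a human embryonic kidney line that carries the SV40 large T antigen, labelled as wild type. The cells were treated for 6 h with vehicle (0.1% DMSO), with thapsigargin (Tg, 500 nM), with AA147 (10 µM) or with AA132 at 0.1, 0.3, 1, 3, 6, 10, 15 or 30 µM. Thapsigargin blocks the calcium pump of the ER membrane and so causes ER stress, whereas AA147 and AA132 are small molecules that activate ER stress signalling. Each of these 11 conditions had 3 numbered libraries. The labels do not say whether the libraries came from separate cultures, so the p-values below measure the spread between libraries, which may be technical.

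The lumenal HSP70 chaperone BiP (HSPA5) folds proteins in the ER by cycles of ATP binding and hydrolysis. Proteins with a J domain bring BiP its clients and stimulate its ATP hydrolysis, and the nucleotide exchange factor SIL1 then helps BiP to release ADP and the client. The lumenal J-proteins divide this work: some assist folding, some send misfolded proteins to degradation and some couple BiP to the translocation channel or to ribosomes. DNAJB12 and DNAJB14 sit in the ER membrane with the J domain facing the cytosol, where they work with the cytosolic HSP70 protein HSPA8. Several of these genes are known targets of the unfolded protein response, the transcriptional answer to ER stress that is driven by ATF6, by XBP1 downstream of IRE1 and by ATF4 downstream of PERK.

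Library totals ran from 32.3 to 38.0 M counts. Levels are given as CPM, the count per gene divided by the library total after TMM scaling and multiplied by 1000000, changes as log2 fold changes from edgeR's quasi-likelihood fit over 17793 genes with standard errors (SE), and a change counted as called where the p adjusted by Benjamini-Hochberg was under 0.05. The HEK293T-typical genes VIM, KRT8, KRT18, NEFM and NEFL were present, with medians over libraries of 1299, 874, 306, 47.4 and 66.6 CPM, and PAX2 was low, at a median of 0.967 CPM. Markers of leukocytes (PTPRC), hepatocytes (ALB), fibroblasts (COL1A2, DCN) and endothelium (PECAM1) never exceeded 5 counts in a library. Vehicle library 1, AA132 10 µM library 1 and AA147 library 1 lay farther from the other libraries of their condition than any others did, at a chi-square per degree of freedom of 49.9 to 64.5, 36.4 to 39.1 and 23.9 to 24.8, where the median over all 33 pairs was 8.01. Vehicle library 1 touches every comparison with vehicle, and results that change without it are given with their value. In addition, the library labelled AA132 1 µM number 1 lay closer to the libraries labelled 3 µM numbers 1 and 2 (root mean square log2 difference 0.22 over the 1255 genes called at 30 µM) than to the others labelled 1 µM (0.297), and the library labelled 3 µM number 3 lay closer to 1 µM numbers 2 and 3 (0.213) than to its own (0.267). HSPA5 stood at 1660, 1028 and 1093 CPM in the 3 libraries labelled 1 µM and at 1921, 1969 and 1042 CPM in those labelled 3 µM. The labels were kept as given. Results without both libraries are given for DNAJB11 at 3 µM, for DNAJC3 at 1 and 3 µM and for counts of called genes that moved.

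Thapsigargin raised 7 of the 9 genes and lowered none, against 16.2% of all tested genes called higher and 15% called lower. Their median log2 fold change was 0.76, compared with 0.005 over all tested genes. The rise was largest for DNAJB9 (6.25-fold), DNAJC3 (4.24-fold) and DNAJB11 (3.31-fold), intermediate for DNAJC10 (2.03-fold) and SIL1 (1.69-fold), and small for DNAJC1 (1.23-fold) and DNAJC16 (1.21-fold). DNAJB12 and DNAJB14 did not pass the test, although DNAJB12 did when vehicle library 1 was left out (log2 fold change 0.23, adjusted p = 0.00974). AA132 at 30 µM raised 4 of the 9 genes, DNAJC3, DNAJB11, DNAJB9 and DNAJC16, by 1.81-fold, 1.62-fold, 1.56-fold and 1.25-fold, against 3.86% of all tested genes called higher and 3.19% called lower. AA147 at 10 µM gave no called change among the 9 genes.

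**Figure D1:**
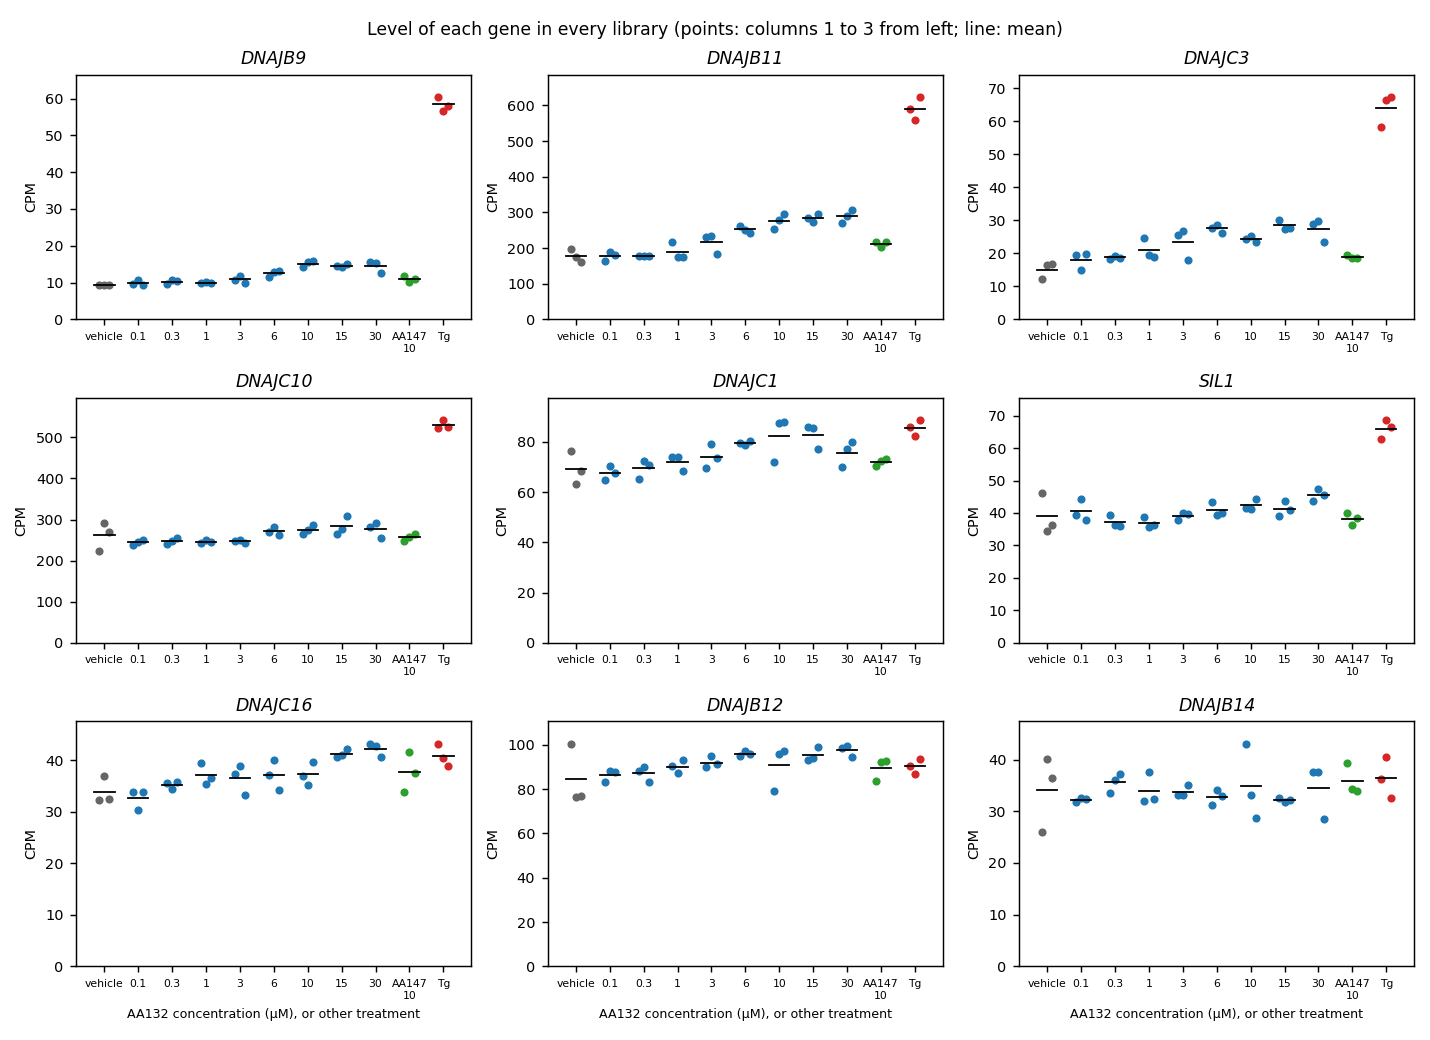
Level of each of the 9 genes in CPM (vertical axis, starting at 0 and scaled per gene) in each of the 33 libraries, by condition along the horizontal axis. Points are libraries 1 to 3 from left to right and the line is their mean. The Tg libraries of DNAJB9, DNAJB11, DNAJC3, DNAJC10 and SIL1 stand above all others, whereas those of DNAJB12 and DNAJB14 lie within the vehicle range or beside it.

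The promoters of genes that answer ER stress often carry the ER stress response element (ERSE, a CCAAT box followed after 9 bases by a CCACG box), bound by ATF6 with NF-Y, or its relative ERSE-II (an ATTGG box followed after 1 base by a CCACG box), or the unfolded protein response element (here TGACGTGG). Promoters of the RefSeq table, 250 bases before to 50 bases after each start on GRCh38.p14, were searched for these letters on both strands, and 8 of the 9 genes had an entry there. ERSE was found in 27 of 35116 promoters (0.0769%) and in 0 of these 8, and ERSE-II in 19 (0.0541%) and in 0 of the 8. TGACGTGG was found in 256 promoters (0.729%) and in 1 of the 8, DNAJC10. The short CCACG box, which also occurs within the longer motifs, was found in 38.1% of all promoters and in 4 of the 8. The CCAAT box was found in 34.6% of all promoters and in 5 of the 8. Stretches of the promoters of DNAJB9 (chr7:108569751-108569850, plus strand), DNAJC3 (chr13:95676974-95677118, plus strand), both raised most by Tg, and DNAJC10 (chr2:182716037-182716236, plus strand), which holds the TGACGTGG match, are shown beside HSPA5 (chr9:125241384-125241563, minus strand), which holds an ERSE. Capitals mark these short boxes and the TGACGTGG match, on either strand, in the first 3, and the ends of the ERSE alone in HSPA5.
DNAJB9: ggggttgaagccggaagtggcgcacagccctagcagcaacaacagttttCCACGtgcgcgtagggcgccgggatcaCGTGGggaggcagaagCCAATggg
DNAJC3: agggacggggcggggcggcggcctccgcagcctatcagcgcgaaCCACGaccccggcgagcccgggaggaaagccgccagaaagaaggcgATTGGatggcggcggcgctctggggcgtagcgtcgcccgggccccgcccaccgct
DNAJC10: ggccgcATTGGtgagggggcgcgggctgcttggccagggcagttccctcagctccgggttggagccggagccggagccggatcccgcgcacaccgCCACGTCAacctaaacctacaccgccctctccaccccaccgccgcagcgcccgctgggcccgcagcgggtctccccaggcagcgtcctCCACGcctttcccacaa
HSPA5: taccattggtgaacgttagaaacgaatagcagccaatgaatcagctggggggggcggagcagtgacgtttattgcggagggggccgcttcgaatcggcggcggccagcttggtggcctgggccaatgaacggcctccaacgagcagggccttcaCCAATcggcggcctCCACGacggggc
In DNAJB9 both short boxes lie in the same promoter without the ERSE spacing, and so they do in DNAJC3 and DNAJC10. The share of all promoters that hold both boxes was not computed. A match is a run of letters, not a measured binding site, and the absence of one says only that these letters are not in this window.

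In vehicle-treated cells the 9 genes differed widely in level. Per kilobase of the canonical transcript in GENCODE v44, DNAJB11 was the highest at 108.9 CPM per kb, followed by DNAJC1 (33.0), DNAJB12 (28.9), SIL1 (20.6), DNAJC10 (12.98), DNAJB14 (5.73), DNAJC16 (5.61), DNAJB9 (3.88) and DNAJC3 (2.7). DNAJC1 and DNAJB12 overlapped in their vehicle libraries, as did DNAJB14 and DNAJC16, and the other neighbours in this order did not. The values rest on the length chosen. With the median length of the coding transcripts in place of the canonical one, the order of the 9 genes was the same. This cannot test the place of DNAJC10, whose canonical transcript has 20144 bases and whose median coding length is 19909. By median length DNAJB14 came to 10.8, DNAJC16 to 7.26 and DNAJC3 to 3.84 CPM per kb. The pairs of neighbours that overlapped were then DNAJC1 with DNAJB12, DNAJC10 with DNAJB14, and DNAJB9 with DNAJC3, and DNAJB14 no longer overlapped DNAJC16.

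DNAJB9 (ERdj4; chromosome 7, 108569867 to 108574850 in GRCh38, plus strand, 3 exons) is a lumenal J-protein that binds misfolded proteins bound for degradation and is known to repress the stress sensor IRE1. It was among the least abundant of the genes at rest, with 9.34, 9.34 and 9.39 CPM in the vehicle libraries. Thapsigargin brought it to 60.5, 56.7 and 58.1 CPM, far outside the vehicle range. The log2 fold change was 2.64 (SE 0.09, adjusted p = 1.6e-21), which ranked 5th of all tested genes by p. Its level under AA147 was 11.8, 10.1 and 10.9 CPM, above every vehicle library. The change of 0.23 (SE 0.09) did not pass the test (adjusted p = 0.625). The vehicle libraries lay close together, and every AA132 group lay above them too, even at 0.1 µM. The share of all genes with such a gap was not computed.

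Over the AA132 series DNAJB9 stayed between 9.48 and 10.8 CPM from 0.1 to 1 µM and reached 10.7, 11.9 and 9.96 CPM at 3 µM. The first called rise was at 6 µM, with 11.6, 12.96 and 13.2 CPM and a log2 fold change of 0.43 (SE 0.09, adjusted p = 0.00707). That call was lost without 6 µM library 3 (adjusted p = 0.0555). DNAJB9 then stood at 14.2, 15.5 and 15.8 CPM at 10 µM, at 14.5, 14.3 and 14.9 CPM at 15 µM and at 15.7, 15.3 and 12.7 CPM at 30 µM. From 10 µM upward the libraries overlapped, and the log2 fold changes against vehicle were 0.70, 0.64 and 0.64. The AA132 30 µM libraries stayed far below those of Tg, with a log2 difference of -2.001 (SE 0.09, adjusted p = 2.08e-18).

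DNAJB11 (ERdj3; chromosome 3, 186567403 to 186585800, plus strand, 10 exons) is an abundant soluble co-chaperone that binds unfolded clients directly and hands them to BiP. The vehicle libraries held 199, 176 and 161 CPM, and the Tg libraries 589, 560 and 624 CPM. Under Tg the log2 fold change was 1.73 (SE 0.09, adjusted p = 7.36e-17). Under AA147 it stood at 218, 202 and 216 CPM, just above the highest vehicle library, with a log2 fold change of 0.25 (SE 0.09) that did not pass the test (adjusted p = 0.541).

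AA132 left DNAJB11 within the vehicle range at 0.1 and 0.3 µM, at 163 to 189 CPM. At 1 µM the libraries held 216, 176 and 174 CPM and at 3 µM 232, 235 and 182 CPM, so that the high library labelled 1 µM and the low library labelled 3 µM are those that stood nearer to the other concentration. The change at 3 µM did not pass the test as labelled (log2 fold change 0.28, SE 0.09, adjusted p = 0.296), and did pass without those libraries (0.39, adjusted p = 0.0131). At 6 µM DNAJB11 held 263, 252 and 242 CPM, all above vehicle, and was called (log2 fold change 0.50, SE 0.09, adjusted p = 0.00101). It then moved little: the log2 fold changes at 10, 15 and 30 µM were 0.63, 0.67 and 0.70, and the 30 µM libraries held 271, 290 and 308 CPM.

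DNAJC3 (ERdj6, also p58IPK, chromosome 13, 95677139 to 95794988, plus strand, 12 exons) is a lumenal co-chaperone that binds unfolded clients. It has also been described as an inhibitor of eIF2α kinases such as PERK. The vehicle libraries held 12.1, 16.4 and 16.8 CPM, and library 1 was the low one. Tg gave 58.3, 66.5 and 67.4 CPM and a log2 fold change of 2.08 (SE 0.13, adjusted p = 6.76e-15). AA147 gave 19.5, 18.5 and 18.6 CPM, above each vehicle library. So did AA132 at 0.3 µM (18.3 to 19.3 CPM), where the fit called no gene. The AA147 log2 fold change of 0.32 (SE 0.13) did not pass the test (adjusted p = 0.646).

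Of the 9 genes, DNAJC3 alone was called at 3 µM AA132. Its libraries held 19.6, 15.1 and 19.7 CPM at 0.1 µM, 18.3, 19.3 and 18.6 CPM at 0.3 µM, 24.6, 19.6 and 19.0 CPM at 1 µM and 25.5, 26.7 and 17.9 CPM at 3 µM. The high and the low library at 1 and 3 µM were again those nearer to the other concentration. At 1 µM the log2 fold change was 0.48 (SE 0.13, adjusted p = 0.791), and 0.35 without those libraries (adjusted p = 0.972). The log2 fold change at 3 µM was 0.63 (SE 0.13, adjusted p = 0.0351, with 0.101% of all genes called higher). Without those libraries it was 0.79 (adjusted p = 0.000222). The call at 3 µM rested on single libraries: leaving out 3 µM library 1 or 2, or vehicle library 1, 2 or 3, gave adjusted p values of 0.398, 0.337, 0.0736, 0.072 and 0.061. At 6, 10, 15 and 30 µM DNAJC3 held 26.2 to 28.7, 23.6 to 25.3, 27.4 to 30.2 and 23.5 to 29.6 CPM, all above vehicle, with called log2 fold changes of 0.87, 0.69, 0.91 and 0.85. The count table also lists DNAJC3-AS1, a gene named as antisense to DNAJC3. It stood at 3.38 ± 0.21 CPM in vehicle and 9.19 ± 0.8 CPM under Tg (SD, n = 3). No position was found under this name, so an overlap with DNAJC3 was not checked. Use of strand in counting is not given in the sources used here. If the genes overlap, reads of the pair cannot be told apart there.

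DNAJC10 (ERdj5; chromosome 2, 182716255 to 182794464, plus strand, 24 exons) joins a J domain to thioredoxin-like domains and reduces disulfide bonds of proteins on their way to degradation. The vehicle libraries held 224, 292 and 269 CPM, and those of Tg 522, 542 and 525 CPM. Under Tg this was a log2 fold change of 1.02 (SE 0.07, adjusted p = 7.13e-14). Under AA147 it stood at 248, 258 and 265 CPM, and under AA132 at 30 µM at 283, 291 and 255 CPM, both within the vehicle range. Over the 24 AA132 libraries it ranged from 238 to 309 CPM. The log2 fold change at 30 µM was 0.08 (95% interval -0.06 to 0.22, adjusted p = 0.548), and -0.02 without vehicle library 1, its lowest vehicle library. DNAJC10 was thus called under Tg and at no AA132 concentration, and the 30 µM libraries were below those of Tg by a log2 difference of -0.94 (SE 0.07, adjusted p = 1.01e-12).

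DNAJC1 (ERdj1; chromosome 10, 21756548 to 22003769, minus strand, 12 exons) spans the ER membrane, with a lumenal J domain and a cytosolic part that binds ribosomes. The vehicle libraries held 76.5, 63.3 and 68.3 CPM and the Tg libraries 86.0, 82.4 and 88.6 CPM. These ranges did not overlap, and the log2 fold change was 0.30 (SE 0.07, adjusted p = 0.00184), although it lost its call in a fit of the Tg and vehicle libraries alone (adjusted p = 0.0569). Under AA132 the log2 fold changes at 6, 10, 15 and 30 µM were 0.20, 0.25, 0.26 and 0.13, none of which passed the test (adjusted p = 0.24, 0.0917, 0.0559 and 0.35). Without vehicle library 1, which held the highest of the vehicle values, the changes at 6, 10 and 15 µM were 0.28, 0.32 and 0.33 and passed it (adjusted p = 0.0395, 0.0121 and 0.00919). That at 15 µM also passed without 15 µM library 3, and that at 10 µM without 10 µM library 1 (adjusted p = 0.049 and 0.0135).

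DNAJC16 (ERdj8; chromosome 1, 15526813 to 15592379, plus strand, 15 exons) is an ER membrane protein with a J domain and a thioredoxin-like domain. Its vehicle libraries held 32.2, 36.9 and 32.5 CPM, the Tg libraries 43.2, 40.4 and 38.9 CPM and the AA132 30 µM libraries 43.2, 42.7 and 40.5 CPM. Both treated groups lay above vehicle and overlapped each other. The log2 fold change was 0.27 (SE 0.08, adjusted p = 0.00868) under Tg and 0.32 (SE 0.08, adjusted p = 0.0114) under AA132 at 30 µM, and the difference of 0.05 between them had a 95% interval of -0.11 to 0.20. At 15 µM it was 0.29 (SE 0.08, adjusted p = 0.0416). These calls rested on single libraries: the Tg call was lost without Tg library 1 (adjusted p = 0.0764) and the 30 µM call without 30 µM library 1 or vehicle library 3 (0.0542 and 0.0501). The 15 µM call was lost without any 1 of the 15 µM libraries or without vehicle library 1 or 3 (adjusted p = 0.0932 to 0.133). In fits of each treatment with vehicle alone, the Tg, 30 µM and 15 µM calls were also lost (adjusted p = 0.0879, 0.24 and 0.47).

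SIL1 (chromosome 5, 138946724 to 139293557, minus strand, 10 exons), the exchange factor of BiP, held 46.2, 34.4 and 36.2 CPM in vehicle and 62.9, 68.6 and 66.5 CPM under Tg. The groups did not overlap and the log2 fold change was 0.76 (SE 0.08, adjusted p = 4.36e-09). AA132 at 30 µM gave 43.7, 47.4 and 45.4 CPM, which overlapped vehicle library 1. The change of 0.22 (SE 0.08) did not pass the test (adjusted p = 0.0915), but did without that vehicle library (0.37, adjusted p = 0.00112). At 10 µM it was 0.12 with vehicle library 1 (adjusted p = 0.557) and 0.26 without it (adjusted p = 0.0413).

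DNAJB12 (chromosome 10, 72332830 to 72355149, minus strand, 9 exons) and DNAJB14 (chromosome 4, 99896248 to 99946618, minus strand, 8 exons) help cytosolic HSP70 to act on membrane proteins of the ER. DNAJB12 held 101, 76.5 and 77.04 CPM in vehicle, 90.5, 86.8 and 93.8 CPM under Tg and 98.8, 99.7 and 94.5 CPM under AA132 at 30 µM. Vehicle library 1 was its highest library of all 33, and every treated group overlapped the vehicle range. The log2 fold change was 0.09 under Tg (adjusted p = 0.397) and 0.21 at 30 µM (adjusted p = 0.11). Without vehicle library 1 these were 0.23 and 0.35 and both passed the test (adjusted p = 0.00974 and 0.000762), as did those at 6, 10 and 15 µM (0.32, 0.24 and 0.31; adjusted p = 0.00591, 0.0394 and 0.00548). DNAJB14 held 26.0, 40.1 and 36.5 CPM in vehicle, 36.2, 40.4 and 32.5 CPM under Tg and 37.5, 37.6 and 28.6 CPM at 30 µM. It was called in no comparison, with a log2 fold change of 0.09 under Tg (SE 0.12) and 0.02 at 30 µM (95% interval -0.24 to 0.27). Without vehicle library 1 these were -0.08 and -0.15.

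**Figure D2:**
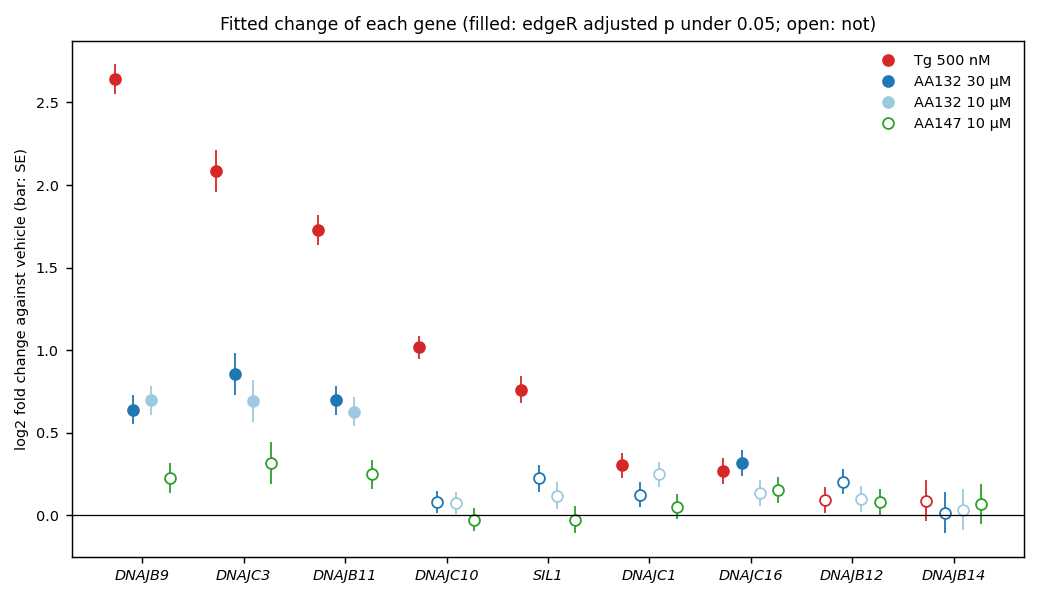
Fitted log2 fold change against vehicle (vertical axis, bars are SE) of the 9 genes under Tg, AA132 at 30 and 10 µM and AA147 at 10 µM, with filled circles for an edgeR adjusted p under 0.05. The Tg values fall from 2.64 for DNAJB9 to 0.09 for DNAJB14; the AA132 values are under 1 throughout, and no AA147 circle is filled.

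The comparison of AA132 concentrations with vehicle asked from which dose the genes responded. None of the 9 was called at 0.1, 0.3 or 1 µM, where edgeR called 0% of all genes and 0, 1 and 1 of the 9 had an unadjusted p under 0.05 (796, 981 and 1057 of all genes). The count was 1 at 3 µM and 3 at 6 and 10 µM (DNAJB9, DNAJB11 and DNAJC3), where 0.866% and 1.03% of all genes were called higher. It was 4 at 15 and 30 µM, with DNAJC16 added, where 1.97% and 3.86% were. No called change was a fall. In fits of each concentration with vehicle alone, 0 of the 9 were called at 3, 6 and 10 µM. Such fits called 2 at 15 µM and 1 at 30 µM. They have fewer libraries to estimate the spread, and called 0, 25, 8, 46 and 74 of all genes at 3, 6, 10, 15 and 30 µM. All treatments were compared with the same vehicle libraries, so these counts are not independent of each other.

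A line fitted over the 24 AA132 libraries does not use the vehicle libraries. It rose with log10 concentration for 8 of the 9 genes, all but DNAJB14, against 9.83% of the 17554 genes tested. The slopes per 10-fold concentration, in log2 units, were 0.34 for DNAJB11 (SE 0.03, adjusted p = 3.01e-10), 0.28 for DNAJC3 (SE 0.04, adjusted p = 1.99e-06) and 0.27 for DNAJB9 (SE 0.04, adjusted p = 9.33e-07). They were smaller for DNAJC16 (0.12), DNAJC1 (0.11), DNAJC10 (0.09), SIL1 (0.08) and DNAJB12 (0.07). DNAJC10 therefore rose across the AA132 series without differing from vehicle at any concentration by the test: its means were 244.8 CPM at 0.1 µM and 276 CPM at 30 µM, around a vehicle mean of 261 CPM. Without the 30 µM libraries the slopes of SIL1 and DNAJB12 were lost (adjusted p = 0.252 and 0.0538), and that of SIL1 was lost without 30 µM library 2 alone (adjusted p = 0.062).

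**Figure D3:**
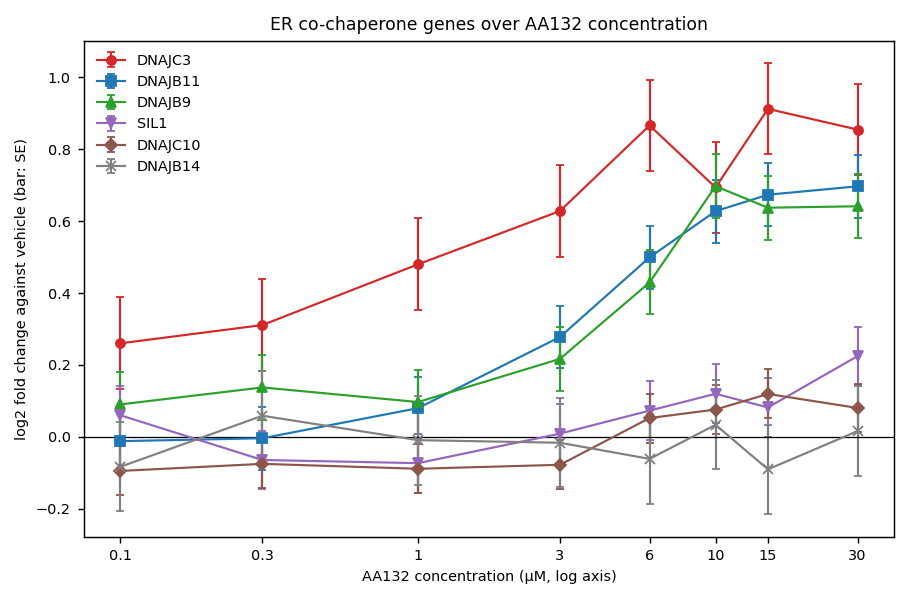
Log2 fold change against vehicle (vertical axis, bars are SE) over AA132 concentration (horizontal log axis, µM) for DNAJC3, DNAJB11, DNAJB9, SIL1, DNAJC10 and DNAJB14. DNAJC3, DNAJB11 and DNAJB9 climb to between 0.64 and 0.85 at 30 µM and change little from 10 to 30 µM, whereas DNAJC10 and DNAJB14 stay near 0.

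Between 10 and 30 µM AA132 none of the 9 genes differed by the test, against 0.933% of all genes called, and 1 of them, DNAJC16, had an unadjusted p under 0.05 (2412 of all genes did). The 95% intervals of the log2 difference were -0.23 to 0.12 for DNAJB9, -0.11 to 0.25 for DNAJB11 and -0.09 to 0.41 for DNAJC3. AA132 and AA147 share 1 concentration, 10 µM, and this pair was the only one compared. There DNAJB9 was higher under AA132 (15.2 ± 0.836 against 10.96 ± 0.864 CPM, SD, n = 3; log2 difference 0.47, SE 0.09, adjusted p = 0.0177), against 0.0562% of all genes called higher. It was no longer called when 1 of the 10 µM AA132 libraries 2 and 3, or of the AA147 libraries 2 and 3, was left out (adjusted p = 0.117, 0.202, 0.209 and 0.147). For DNAJB11 the difference was 0.38 (95% interval 0.20 to 0.56, adjusted p = 0.086) and for DNAJC3 0.37 (0.12 to 0.63, adjusted p = 0.369). DNAJB11 passed the test without AA132 10 µM library 1 (0.43, adjusted p = 0.0308). With all libraries kept it passed in DESeq2's Wald test (adjusted p = 0.0212) and in edgeR with no low-count filter (adjusted p = 0.000372). A fit of the AA132 10 µM and AA147 libraries alone called 0 of the 9 genes. For the other 6 genes the intervals lay between -0.29 and 0.35. In AA147 against vehicle, 0 of the 9 genes was called by edgeR (0.00562% of all genes called higher), and 3 had an unadjusted p under 0.05 (1211 of all genes did).

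AA132 at 30 µM was compared with Tg directly, and the doses of these compounds are not matched. DNAJB9, DNAJB11, DNAJC3, DNAJC10 and SIL1 were lower under AA132, against 15.5% of all genes called lower, and none of the 9 was higher. Expressed as a share of the Tg log2 fold change, the 30 µM response was 41.0% ± 8.81 for DNAJC3 (SD over the 3 libraries), 40.3% ± 5.32 for DNAJB11, 29.6% ± 7.64 for SIL1, 24.3% ± 6.32 for DNAJB9 and 7.91% ± 9.74 for DNAJC10. The shares for DNAJC3 and DNAJB11 thus lay above those for DNAJB9, whose libraries ranged from 16.7% to 28.2%, and DNAJC10, from -2.44% to 16.1%. DNAJC16 came to 117% ± 18.02 of a small Tg change, with libraries from 97.3% to 131%. DNAJC1, whose Tg change was also small, came to 41.7% ± 33.2, with libraries spread from 5.16% to 69.1%. The shares of DNAJC16 and DNAJC1 without vehicle library 1 were 123% and 54.4%. The differences between genes in these shares were not tested, and all shares use the same vehicle libraries. Without vehicle library 1 the shares were 43.3% for DNAJB11, 40.9% for SIL1, 37.1% for DNAJC3, 24.3% for DNAJB9 and -2.23% for DNAJC10, so that SIL1 stood above DNAJC3 and DNAJC10 turned sign.

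BiP itself was compared with its co-chaperones. HSPA5 held 1025, 973 and 882 CPM in vehicle, 1411, 1640 and 1634 CPM under AA147, 2450, 2646 and 2814 CPM under AA132 at 30 µM and 10970, 10780 and 11320 CPM under Tg. The 5 J-proteins with a lumenal J domain summed (DNAJB9, DNAJB11, DNAJC1, DNAJC3 and DNAJC10) amounted to 55.8 ± 4.54 CPM per 100 CPM of HSPA5 in vehicle (SD, n = 3). The ratio was 36.7 ± 3.15 under AA147, 26.0 ± 1.65 under AA132 at 30 µM and 12.1 ± 0.0641 under Tg, with no overlap between these 4 groups. It measures reads, not protein, and is not corrected for transcript length. For SIL1 the ratio was 4.05 ± 0.486 in vehicle, 1.73 ± 0.101 at 30 µM and 0.599 ± 0.033 under Tg.

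Because HSPA5 itself rose, a gene whose own level did not change also falls in this ratio. DNAJB12 and DNAJB14, not called under Tg, went from 8.80 to 0.82 and from 3.60 to 0.33. The decline in the ratio was not equal among the genes. DNAJB9 gave 0.979 ± 0.0785 CPM per 100 CPM of HSPA5 in vehicle, 0.558 ± 0.0969 under AA132 at 30 µM and 0.53 ± 0.0194 under Tg, so that its AA132 and Tg libraries overlapped. DNAJC10 went from 27.4 ± 4.89 in vehicle to 10.5 ± 1.3 at 30 µM and 4.81 ± 0.198 under Tg, and DNAJB11 from 18.6 ± 0.707 to 10.98 ± 0.0666 and 5.36 ± 0.162. At 1 µM the ratio of the summed J-proteins was 34.1, 51.6 and 47.2, and at 3 µM 30.5, 30.7 and 50.6, with the library labelled 1 µM number 1 and that labelled 3 µM number 3 as the odd values.

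**Figure D4:**
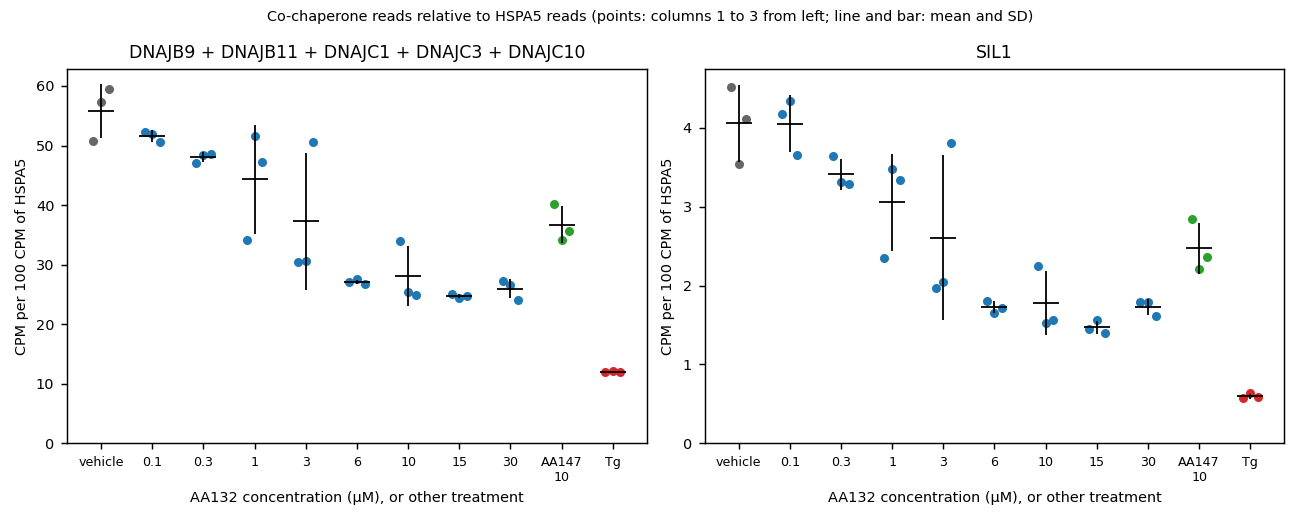
CPM of 5 J-protein genes summed (left: DNAJB9, DNAJB11, DNAJC1, DNAJC3 and DNAJC10) and of SIL1 (right) per 100 CPM of HSPA5 in each library. Points are libraries 1 to 3 of each condition, and the line and bar are the mean and SD. The summed ratio lies at 50.8 to 59.5 in vehicle and at 12.0 to 12.1 under Tg, with AA132 from 6 µM and AA147 between them.

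The partners of the 9 genes were read from lists compiled by function. Their counts are read beside the shares over all tested genes, 16.2% called higher and 15% lower under Tg, and 3.86% higher and 3.19% lower at 30 µM AA132, and beside medians over all tested genes of 0.005 and -0.001. Of the 9 genes of the lumenal HSP70 system, 8 were higher and 1 lower under Tg, with a median log2 fold change of 2.02. HSPA5 (3.52), the BiP relative and exchange factor HYOU1 (2.80), SDF2L1, a subunit of a complex with DNAJB11 (2.59), and FICD, the enzyme that AMPylates BiP (2.07), rose. SDF2, the close relative of SDF2L1, fell: it held 75.4 ± 9.87 CPM in vehicle and 55.1 ± 1.49 CPM under Tg, a log2 fold change of -0.45 (adjusted p = 1.56e-05). At 30 µM AA132 6 of the 9 were higher and none lower, with a median of 0.52. HSPA5 (1.46), HYOU1 (0.92) and HSP90B1, the lumenal HSP90 (0.81), led, and the change of SDF2 was 0.09 (adjusted p = 0.539).

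All 13 listed genes of ER-associated degradation were higher under Tg (16.2% of all tested genes were), with a median of 1.07. At 30 µM AA132 6 of 13 were higher (3.86% of all tested genes), with a median of 0.21. HERPUD1, which organises the HRD1 ligase complex (4.12 under Tg and 1.09 at 30 µM), and the channel protein DERL3 (2.93 and 1.07) moved most. EDEM1, a lectin-like protein that works with DNAJC10 in degradation, rose under Tg, where it held 181.9 ± 12.4 CPM beside 63.7 ± 9.15 CPM in vehicle (a log2 change of 1.51, adjusted p = 2.22e-16), and stood at 64.6 ± 1.02 CPM under 30 µM AA132 (0.02, adjusted p = 0.924). Of the stress sensors and their effectors, 4 of 5 were higher under Tg. These were XBP1 (2.24), EIF2AK3, which encodes PERK (1.52), ERN1, which encodes IRE1 (1.22), and ATF6 (0.68). At 30 µM AA132 XBP1 (0.72) and ATF6 (0.20) were higher.

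Of the cytosolic partners of DNAJB12 and DNAJB14, 1 of 10 was higher and 4 were lower under Tg (16.2% and 15% of all tested genes), and 2 were higher and 1 lower at 30 µM AA132 (3.86% and 3.19%). HSPA8, the HSP70 that works with DNAJB12 and DNAJB14, fell under Tg: vehicle held 3187 ± 153 CPM and Tg 1087 ± 39.8 CPM, a log2 change of -1.55 (adjusted p = 8.09e-19), while the ubiquitin ligase RNF185 rose (0.34). At 30 µM AA132 HSPA8 stood at 3326 ± 253 CPM (0.06, adjusted p = 0.646). Of 28 tested J-proteins outside the ER (29 listed), 6 were higher and 6 lower under Tg, with a median of 0.04, close in both directions to the shares over all tested genes (16.2% and 15%). DNAJB5 rose most (1.34), and DNAJA1, a major cytosolic co-chaperone, fell most (-0.76). At 30 µM AA132 4 were higher, including DNAJB1 (0.35), which fell under Tg (-0.59), and 3 were lower. Of 4 further J-proteins of the ER or its membrane, SEC63 (1.13), DNAJC25 (0.66) and DNAJC18 (0.48) were higher and DNAJC14 (-0.21) lower under Tg, and SEC63 alone was called at 30 µM (0.23).

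For each of the 7 genes called in a treatment, the 3 tested genes outside the 9 with the most similar log2 fold changes over the 10 treatments were identified by the root mean square (RMS) difference. DNAJB9 was closest to SEL1L, the adaptor of the HRD1 ligase (RMS 0.11), SDF2L1 (0.125) and the transcription factor gene CEBPB (0.128). DNAJB11 was closest to the ER oxidase gene ERO1B (0.0939), PYCR1 (0.108) and IFRD1 (0.109), and DNAJC3 to XBP1 (0.153), SLC7A5 (0.156) and CRELD1 (0.156). SIL1 was closest to the ER calcium-binding protein gene CALU (0.0509), ZCCHC7 (0.0516) and MARS (0.0526), and DNAJC10 to CHPF (0.056), LOC102724238 (0.0582) and GALK2 (0.0584). The neighbours of the small changers were ZNF274, VDR and DCP1B for DNAJC1 (0.0428 to 0.0492) and ZNF891, GEN1 and NT5C2 for DNAJC16 (0.0491 to 0.0508). All 10 values of a gene share the vehicle libraries, and a small RMS is easier to reach for a gene that changes little.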

How the data were processed

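The authors deposited 1 table with an estimated count per gene for each of 33 libraries, labelled as linear total reads, in which 0.009 stands for 0 (43.5% of values) and 3.22% of values are fractional. The genome build GRCh38.p7 is named, per the submitters' processing notes; the aligner, annotation and use of strand are not given in the sources used here. Cells were HEK293T, and libraries were made from total RNA and sequenced on a DNBSEQ platform, per the labels' protocols.

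Values were rounded to whole counts, and entries sharing a name were summed (98 entries, 45 names). Genes were tested with edgeR 4.0.16 in R 4.3.3 (TMM scaling, filterByExpr, quasi-likelihood F test, Benjamini-Hochberg adjustment over all tested genes) in 1 fit of all 11 conditions; the AA132 slope used log10 concentration. The common dispersion corresponds to a coefficient of variation of 9.09%. Scripts were tested on simulated data. Alternatives were DESeq2 1.42.0, its size factors, no filter, only the conditions compared, the library number as a block, each library left out and, for the slope, other concentration ranges; leaving out the 3 or the 2 libraries that stood apart was chosen after seeing the data. As a set, library numbers did not pair across conditions.

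The genes and lists were chosen with earlier results of these data known. Named genes are the 9, the 3 nearest to each called gene, and listed genes called under Tg or 30 µM AA132, largest first; EDEM1, HSPA8 and SDF2 at 30 µM are given for comparison with Tg. The table lists SELENOS as VIMP. Gene positions come from GENCODE v44 and promoters from RefSeq.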

Additional observations from a re-analysis of the deposited data

How the results depend on the processing

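Of the 126 results (9 genes in 14 comparisons), 52 were called in the fit reported or under an alternative. Of 823 values recomputed for these 52, 748 kept their side of the threshold, and 38 lost and 37 gained a call. A change of direction was counted only where the value was called before or after, and 0 were found. Of the other 74, called under no setting, 41 changed sign under at least 1 alternative, among them DNAJC10 at 30 µM (-0.02 to 0.16). The counts of called genes among the 9 moved by more than 1.5 times in these cases. Only the conditions compared: 0 at 3, 6 and 10 µM AA132, 2 at 15 µM and 1 at 30 µM. AA132 against AA147 then gave 0. This fit has fewer libraries to estimate the spread. Over all genes it called 0, 25 and 8 at 3, 6 and 10 µM and 46 at 15 µM. It called 74 at 30 µM and 0 for AA132 against AA147. No low-count filter: 1 at 1 µM (DNAJC3), 2 at 3 µM and 2 for AA132 against AA147. Over all 30096 genes this setting called 46, 153 and 98. DESeq2: 2 for AA132 against AA147, with 55 of all genes called. Without the 3 libraries farthest from their condition: 1 under AA147 (DNAJB12), 3 at 3 µM, 5 at 6 µM, 6 at 10 µM, 7 at 30 µM and 2 for AA132 against AA147. Calls rose over all genes too, to 49, 351, 1084, 1394, 2716 and 139 in the same order. Without the 2 libraries nearer another concentration: 2 at 3 µM and 2 for AA132 against AA147, with 60 and 33 of all genes called. Leaving out each library in turn gave 0 to 2 at 3 µM, 2 to 5 at 6 µM, 3 to 6 at 10 µM and 0 to 2 for AA132 against AA147, and the highest at 6 and 10 µM came without vehicle library 1. Over all genes, leaving out 1 library called 0 to 85 at 3 µM and 95 to 506 at 6 µM. It called 156 to 651 at 10 µM and 0 to 77 for AA132 against AA147. The cause of these changes was not tested.

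As a set, the same-numbered libraries did not deviate together (165 pairs, r from -0.147 to 0.183, 2 over 0.1). Of 33 libraries, 13 were closest to their own number. The highest r, 0.183, was between AA132 10 µM library 1 and AA147 library 1, both among those farthest from their condition. Vehicle library 1, also among those, gave r of -0.099 and 0.031 with these libraries. The replicate block changed 0 calls and 0 counts among the 9 genes: it called 7 under Tg and 4 at 30 µM, as without it.

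Over all genes the alternatives ranged from 3073 to 5827 called under Tg (5551 in the fit reported), 74 to 2716 at 30 µM (1255), 46 to 1145 at 15 µM (491), 8 to 1394 at 10 µM (250), 25 to 1084 at 6 µM (190), 0 to 351 at 3 µM (21), 0 to 46 at 1 µM (0), 0 to 25 at 0.3 µM (0), 0 to 33 at 0.1 µM (0), 0 to 82 under AA147 (4), 0 to 139 for AA132 against AA147 (12), 2 to 616 for 30 against 10 µM (166) and 2046 to 3656 for the slope (3286).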
